A study of Mus musculus with 9 samples.

Results

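Apolipoproteins are the protein components of the lipoprotein particles that carry triglyceride and cholesterol in plasma, and the liver makes most of them. *Apob* encodes the structural protein around which very low density lipoprotein (VLDL) is built, *Apoa1* and *Apoa2* encode the main proteins of high density lipoprotein (HDL), and the smaller exchangeable apolipoproteins move between particles and set how lipases and receptors act on them. Here 10 apolipoprotein genes were followed in mouse liver, chosen by gene symbol from the 43346 genes of the deposited count table: *Apoa1*, *Apoa2*, *Apoa4*, *Apoa5*, *Apob*, *Apoc1*, *Apoc3*, *Apoe*, *Apoh* and *Apom*. All 10 symbols were present and all 10 were among the 15024 genes that passed the filter on low counts.

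Whole liver RNA from male WT C57/BL6 mice (C57BL/6J in the study's methods) of 12 weeks was measured by bulk RNA-Seq in 9 libraries, 3 for each of 3 groups. The baseline group (vehicle at 0 h) was the liver removed at 70% hepatectomy from mice that had received saline, and the vehicle and NSC groups were the liver remnants 40 h after that operation. NSC is NSC-87877, a small molecule inhibitor of the phosphatases SHP2 and SHP1, given i.p. at 7.5 mg/kg every 12 h, and vehicle mice received saline on the same schedule. Per the labels, dosing began 12 h before surgery and went on until the remnant was taken, so every remnant had been through the same resection and the baseline had not. Resected liver of NSC-treated mice was not analysed here. The 3 vehicle specimens therefore served as baseline for vehicle and NSC remnants alike, and an effect of NSC before surgery cannot be told apart from an effect after it. The sources do not say whether equal replicate numbers mark resected and remnant liver of the same mouse.

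Each library held between 23997363 and 42887589 counts. Albumin (*Alb*), the defining hepatocyte transcript, lay between 75130 and 103500 CPM (counts scaled to library size with TMM factors) in all 9 libraries. A pair of libraries stood apart from their groups. Baseline replicate 2 had 81.0 CPM of the clock output gene *Dbp*, against 0.411 and 1.29 CPM in the other baseline livers, and 3744 CPM of the acute phase apolipoprotein *Saa1*, against 899.5 and 830.6 CPM. NSC replicate 1 had 100.3 CPM of the collagen gene *Col3a1*, against 32.3 and 36.5 CPM in the other NSC remnants. Calls given below for named genes that were lost without either library are marked as such. Counts over gene lists also hold calls of genes that are not named.

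At baseline, apolipoprotein messages were among the most abundant of the liver. Compared per transcript length in FPKM, which divides the counts by gene length and library total, *Apoa2* led with 14970 ± 889 FPKM (SD, n = 3) and ranked 2 among all genes listed. *Apoc1*, *Apoe* and *Apoa1* followed at 6124 ± 665, 6089 ± 714 and 5718 ± 1295 FPKM, and the ranges of these neighbours in the order overlapped. Below them the order was *Apoc3* at 1685 ± 98.3, *Apoh* at 1256 ± 48.7, *Apoa5* at 474 ± 123, *Apob* at 316 ± 40.6, *Apom* at 201 ± 6.57 and *Apoa4* at 55.0 ± 13.4 FPKM, with no overlap between the ranges of successive genes from *Apoa1* downward. The 10 genes together took 3.81%, 4.08% and 4.14% of all counts in the 3 baseline livers.

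The first comparison asked how these genes stood in the regenerating liver of vehicle mice, 40 h after hepatectomy, against baseline. *Apoa4* rose 31.2-fold and *Apom* rose 1.58-fold, while *Apoc1*, *Apoe*, *Apoa2* and *Apoa5* fell. *Apoa1*, *Apob*, *Apoc3* and *Apoh* did not pass the test. Thus 2 of the 10 genes rose and 4 fell at an adjusted p under 0.05, where 12.7% of all 15024 tested genes rose and 11.0% fell. The median log2 fold change of the 10 genes was -0.40, beside 0.013 over all tested genes.

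The second comparison asked the same of NSC-treated remnants against the same baseline livers. *Apoa4* rose 10.9-fold, and *Apoe*, *Apoc1*, *Apoa2*, *Apoa5* and *Apoc3* fell. So 1 of the 10 genes rose and 5 fell, where 18.2% of all tested genes rose and 16.5% fell, and the median log2 fold change of the 10 was -0.59 beside 0.013 over all tested genes. The calls of the first and second comparison had 5 genes in common (*Apoa2*, *Apoa4*, *Apoa5*, *Apoc1* and *Apoe*). *Apom* was called in vehicle remnants and not in NSC remnants, and *Apoc3* in NSC remnants and not in vehicle remnants, but neither differed between the treatments by the test of the difference itself, given below.

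**Figure D1:**
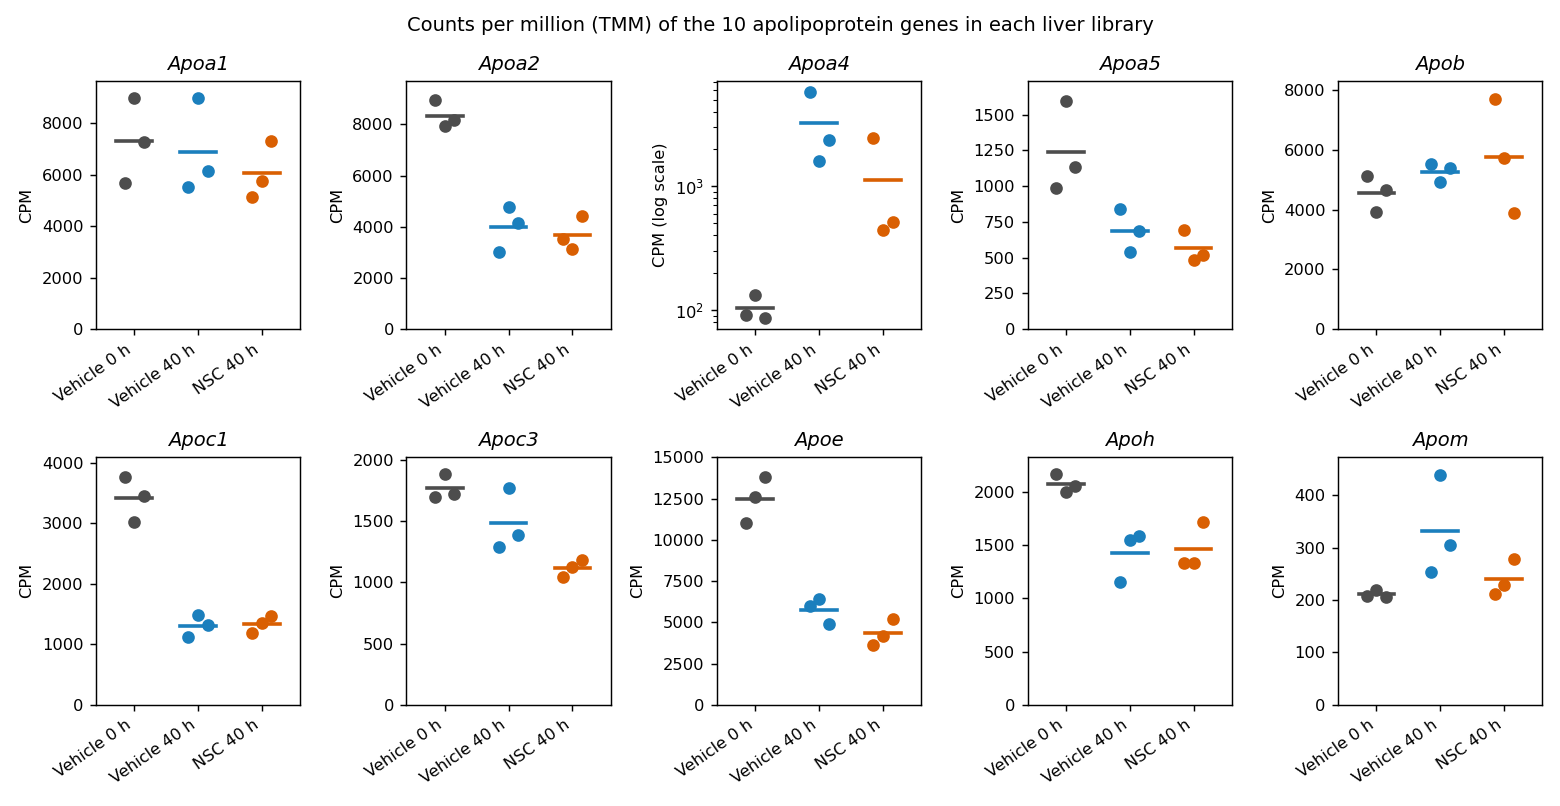
Each panel plots 1 gene in CPM (counts scaled to library size with TMM factors) on the vertical axis, by group on the horizontal axis, with a point for each of the 3 livers of a group and a bar at the group mean (log axis for Apoa4, linear axes from 0 for the others). Both 40 h groups of Apoc1, Apoe and Apoa2 lie wholly below baseline, Apoa4 lies wholly above it, and Apoa1 and Apob overlap baseline.

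Of the 2 main HDL genes, *Apoa2* was called in both comparisons and *Apoa1* in neither. *Apoa1*, which encodes the chief HDL protein and the activator of the cholesterol esterifying enzyme LCAT, had 5699, 8992 and 7280 CPM in the 3 baseline livers, 5510, 8998 and 6136 CPM in vehicle remnants and 5157, 5749 and 7300 CPM in NSC remnants. The 3 groups overlapped. Its log2 fold change was -0.09 (95% confidence interval -0.63 to 0.45, adjusted p = 0.827) in vehicle and -0.27 (-0.81 to 0.27, adjusted p = 0.421) in NSC remnants. Changes within these intervals remain compatible with the data of 3 livers a group. *Apoa2*, the other major HDL protein, had 8937, 7927 and 8160 CPM at baseline, 3015, 4768 and 4162 CPM in vehicle remnants and 3502, 3122 and 4424 CPM in NSC remnants. Every remnant lay below every baseline liver. *Apoa2* fell by 1.07 on the log2 scale (SE 0.22, adjusted p = 0.0046) in vehicle and by 1.18 (SE 0.22, adjusted p = 0.0018) in NSC remnants. Per length, the ratio of *Apoa1* to *Apoa2* FPKM, a ratio chosen after the values were seen, was 0.277 to 0.493 in baseline livers, 0.641 to 0.821 in vehicle and 0.641 to 0.801 in NSC remnants.

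*Apoa4* encodes a lipid-binding apolipoprotein made mostly by the intestine and, in mice, also by the liver. It had 91.1, 133 and 86.6 CPM in baseline livers, 5733, 1609 and 2345 CPM in vehicle remnants and 2433, 440 and 516 CPM in NSC remnants. All 6 remnants lay above all baseline livers, and within each 40 h group the replicate 1 library was the highest. The log2 fold change was 4.96 (95% confidence interval 2.92 to 7.01, adjusted p = 0.0064) in vehicle and 3.45 (1.55 to 5.35, adjusted p = 0.0145) in NSC remnants. Without NSC replicate 1 the rise in NSC remnants was 2.21 (adjusted p = 0.0111). The NSC call was lost without baseline replicate 1 (3.36, adjusted p = 0.0519) or baseline replicate 3 (3.34, adjusted p = 0.0598), and the vehicle call held when any 1 library was left out, with log2 fold changes from 4.26 to 5.29. *Apoa4* also varied most of the 10 genes, with an SD of log2 CPM over the 9 libraries of 2.26, against 0.30 to 0.71 for the other 9.

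*Apom* encodes the small apolipoprotein that carries sphingosine-1-phosphate in HDL. It was tightly grouped at baseline, at 207, 219 and 206 CPM, and had 254, 440 and 306 CPM in vehicle remnants and 212, 229 and 279 CPM in NSC remnants. Vehicle remnants lay above baseline, and NSC remnants overlapped it. The log2 fold change was 0.66 (SE 0.20, adjusted p = 0.0335) in vehicle and 0.19 (SE 0.20, adjusted p = 0.494) in NSC remnants. The vehicle call was lost in 5 of the fits that left out 1 library, and without vehicle replicate 2, the highest library, the value was 0.41 (adjusted p = 0.132).

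The gene of the triglyceride-lowering apolipoprotein, *Apoa5*, which aids lipolysis by lipoprotein lipase, had 983, 1597 and 1132 CPM in baseline livers, 843, 536 and 684 CPM in vehicle remnants and 689, 486 and 518 CPM in NSC remnants. Both 40 h groups lay below baseline. It fell by 0.85 on the log2 scale (SE 0.24, adjusted p = 0.022) in vehicle and by 1.13 (SE 0.24, adjusted p = 0.0037) in NSC remnants. The highest baseline value was that of replicate 2, the library with high *Dbp*. Without it the log2 fold change was -0.62 in vehicle (adjusted p = 0.0909, no longer called) and -0.91 in NSC remnants (adjusted p = 0.015). The vehicle call was also lost without vehicle replicate 2 (-0.69, adjusted p = 0.0814) or vehicle replicate 3 (-0.84, adjusted p = 0.0713).

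*Apoc3*, which encodes an inhibitor of lipoprotein lipase and of remnant uptake, had 1700 CPM in baseline replicate 1, 1889 CPM in replicate 2 and 1725 CPM in replicate 3. It had 1288, 1771 and 1389 CPM in vehicle remnants, which overlapped baseline, and 1043, 1124 and 1180 CPM in NSC remnants, which lay below both other groups. The log2 fold change was -0.26 (SE 0.17, adjusted p = 0.313) in vehicle and -0.67 (SE 0.18, adjusted p = 0.0119) in NSC remnants. The NSC call was lost when GC content was corrected for (-0.40, adjusted p = 0.0671) or when baseline replicate 2 and NSC replicate 1 were both left out (-0.57, adjusted p = 0.0722).

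*Apoc1* encodes a small apolipoprotein that slows the uptake of lipoprotein remnants by receptors. Its levels were 3770, 3018 and 3450 CPM at baseline, 1113, 1487 and 1323 CPM in vehicle remnants and 1182, 1356 and 1468 CPM in NSC remnants. Both 40 h groups lay far below baseline and overlapped each other. The log2 fold change was -1.38 (SE 0.19, adjusted p = 0.00047) in vehicle and -1.35 (SE 0.19, adjusted p = 0.00035) in NSC remnants, a 2.61-fold and a 2.56-fold fall. It was the gene of the 10 with the smallest adjusted p in vehicle remnants, and both calls held in all 19 alternative fits.

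*Apoe*, the ligand through which hepatocytes take up lipoprotein remnants, had 11043, 12608 and 13814 CPM in baseline livers. It had 5981, 6416 and 4885 CPM in vehicle remnants and 3615, 4197 and 5199 CPM in NSC remnants. All 6 remnants were below all baseline livers, and the 2 groups of remnants overlapped only through the highest NSC and the lowest vehicle liver. *Apoe* fell by 1.12 on the log2 scale (SE 0.21, adjusted p = 0.0027) in vehicle and by 1.53 (SE 0.21, adjusted p = 0.00032) in NSC remnants, and these calls also held in all 19 alternative fits. In whole liver *Apoe* is made by hepatocytes and by macrophages, and in bulk RNA fewer cells of a type and less RNA per cell cannot be told apart.

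*Apob* and *Apoh* did not pass the test in either comparison. *Apob* had 5110, 3931 and 4655 CPM in baseline livers, 5511, 4921 and 5394 CPM in vehicle remnants and 7719, 5721 and 3882 CPM in NSC remnants, so that the NSC group spanned the whole range of the other 2 groups. Its log2 fold change was 0.21 (95% confidence interval -0.31 to 0.73, adjusted p = 0.568) in vehicle and 0.34 (-0.18 to 0.86, adjusted p = 0.292) in NSC remnants, and 0.07 in NSC remnants without NSC replicate 1, the highest library. *Apoh*, which encodes the phospholipid-binding plasma protein beta-2-glycoprotein I, had 2170, 1998 and 2056 CPM at baseline, 1158, 1548 and 1585 CPM in vehicle remnants and 1337, 1329 and 1715 CPM in NSC remnants. All remnants of *Apoh* lay below baseline, with log2 fold changes of -0.54 (SE 0.19, adjusted p = 0.0565) in vehicle and -0.51 (SE 0.19, adjusted p = 0.0533) in NSC remnants, just outside the threshold. *Apoh* was called in 7 of 19 alternative fits in vehicle and in 6 of 19 in NSC remnants, with adjusted p over these fits from 0.0097 (DESeq2) to 0.196 and from 0.0136 (DESeq2) to 0.165.

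**Figure D2:**
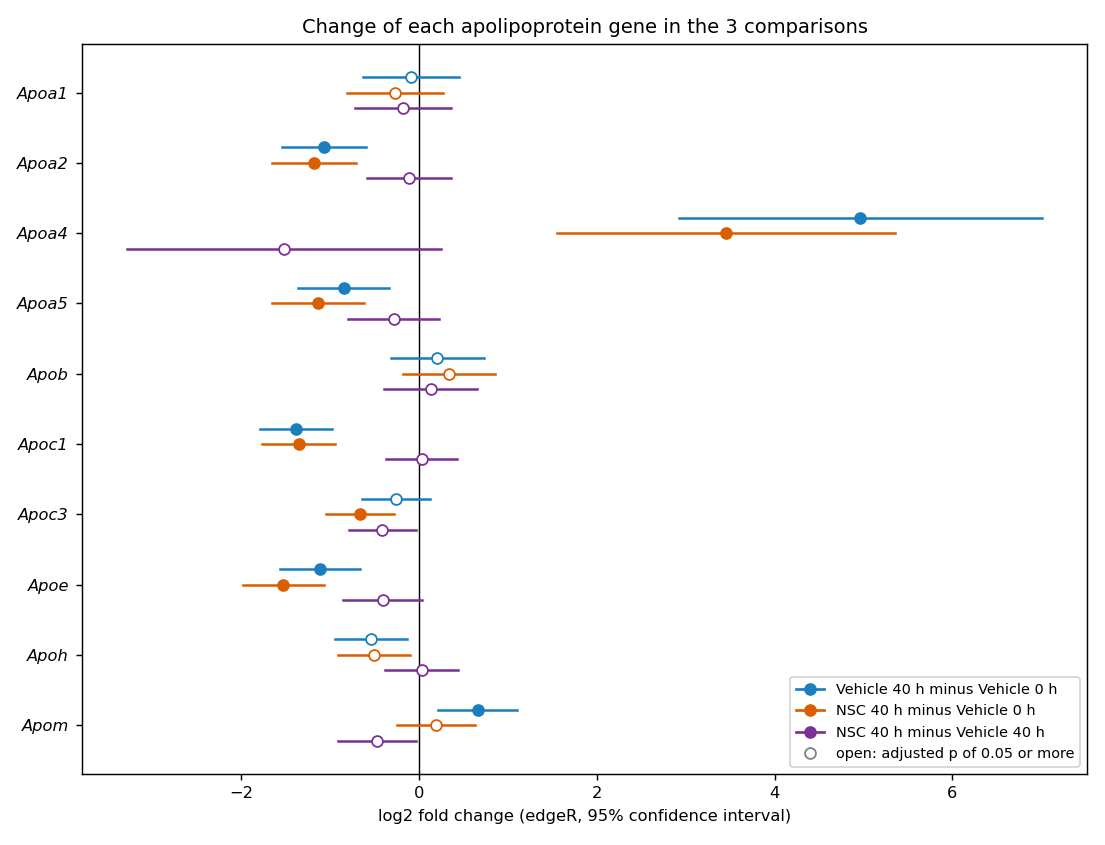
The horizontal axis gives the log2 fold change of each gene with its 95% confidence interval from the edgeR fit, in vehicle remnants against baseline (blue), NSC remnants against baseline (orange) and NSC against vehicle remnants (purple), with filled points for an adjusted p under 0.05. The intervals of Apoa2, Apoa4, Apoa5, Apoc1 and Apoe exclude 0 in both comparisons with baseline, and no point of the direct comparison is filled.

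The third comparison set NSC against vehicle remnants at 40 h and is the direct test of whether the 2 changes from baseline differed. None of the 10 genes passed it with edgeR's quasi-likelihood test, and none with DESeq2, while 2 of the 10 had an unadjusted p under 0.05. Over all tested genes 0.0% rose and 0.0399% fell (6 genes), and 2929 of 15024 had an unadjusted p under 0.05. The count of 2 among the 10 was thus near the background. The 2 genes with an unadjusted p under 0.05 were *Apoc3*, with a log2 fold change of -0.41 (95% confidence interval -0.79 to -0.03, adjusted p = 0.228), and *Apom*, with -0.47 (-0.91 to -0.03, adjusted p = 0.23). *Apoe* was lower by a similar amount, -0.41 (-0.85 to 0.04, adjusted p = 0.289). For *Apoa1*, *Apoa2*, *Apoa5*, *Apob*, *Apoc1* and *Apoh* the log2 fold changes lay between -0.28 and 0.13, with intervals that reached from -0.80 at the lowest to 0.65 at the highest. Differences within the interval of each gene remain compatible with the data. The median over the 10 genes was -0.23, beside 0.015 over all tested genes.

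*Apoa4* had the widest interval in the direct comparison. The log2 fold change was -1.52 (95% confidence interval -3.28 to 0.25, adjusted p = 0.311), and the groups overlapped because NSC replicate 1, at 2433 CPM, lay above 2 of the 3 vehicle remnants. Without that library the value was -2.76 (adjusted p = 0.0305), past the threshold, and 994 of all tested genes were then called in this comparison. Without vehicle replicate 1 it was -0.81 (adjusted p = 0.672). The call of *Apoa4* in the direct comparison thus rested on single libraries.

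Summed per length, the 10 genes held 36890 ± 522 FPKM (SD, n = 3) in baseline livers, 22690 ± 1272 in vehicle remnants and 21220 ± 2871 in NSC remnants. Every remnant total lay below every baseline total, and the remnant groups overlapped. The share of *Apoa2* in this sum was 40.6% ± 2.89 at baseline, 31.4% ± 4.48 in vehicle and 34.2% ± 2.04 in NSC remnants, and that of *Apoc1* was 16.6% ± 1.94, 10.4% ± 0.67 and 12.5% ± 1.24. The share of *Apoa1* was 15.5% ± 3.41, 23.5% ± 3.30 and 24.5% ± 2.19, although its own level did not change detectably. *Apoa4* went from 0.149% ± 0.036 of the sum at baseline to 7.99% ± 6.06 in vehicle and 3.22% ± 3.34 in NSC remnants. In the order of FPKM levels *Apoa4* stood last of the 10 at baseline, at place 5 in vehicle remnants at 1793 ± 1351 FPKM and at place 7 in NSC remnants at 676 ± 695 FPKM, and in vehicle remnants its range overlapped those of both neighbours, *Apoc1* and *Apoc3*. *Apoa2* stayed first in all 3 groups, at 7128 ± 1078 FPKM in vehicle and 7293 ± 1413 FPKM in NSC remnants, but its range then overlapped that of *Apoa1*.

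**Figure D3:**
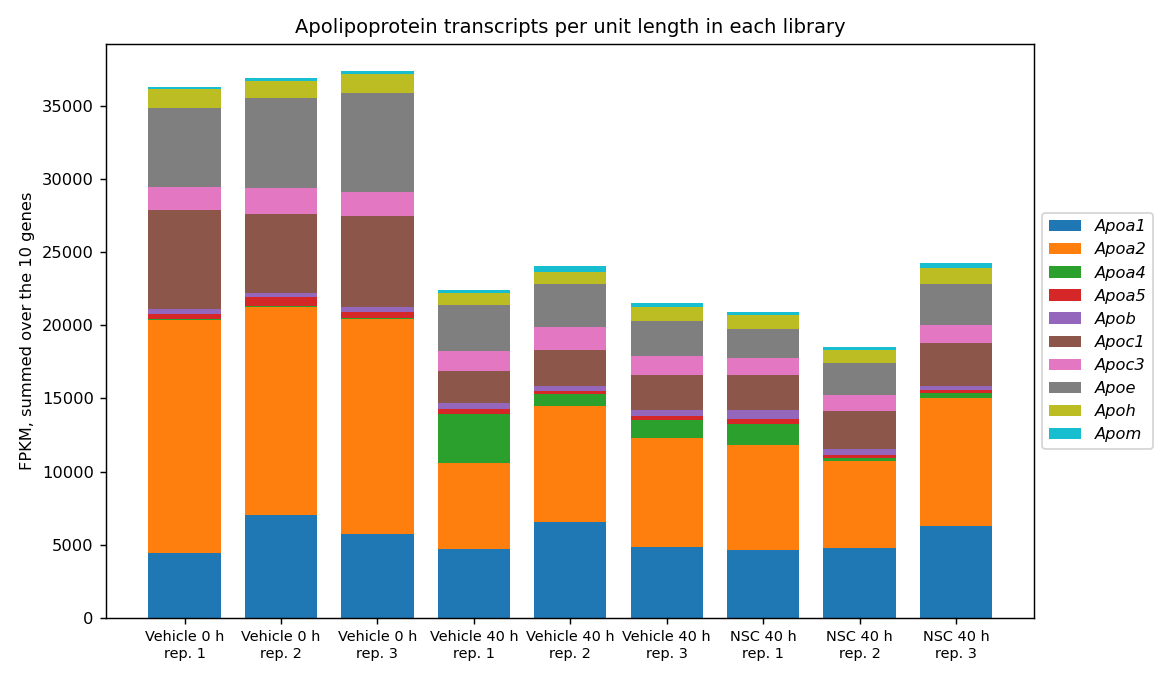
The bars give the FPKM of the 10 genes summed in each of the 9 libraries, with 1 colour per gene. Baseline bars reach 36340 to 37380 FPKM and remnant bars 18520 to 24240 FPKM, with narrower Apoa2, Apoc1 and Apoe layers and a visible Apoa4 layer in the remnants.

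Of the 10 genes, 6 lie in the 2 apolipoprotein clusters of the mouse genome (GRCm38), where neighbours moved unequally. The chromosome 9 cluster holds *Apoa1* (chr9:46228580-46230466), *Apoc3* (chr9:46232933-46235636), *Apoa4* (chr9:46240696-46243459) and *Apoa5* (chr9:46268633-46271919). Only 5059 bases part *Apoc3* from *Apoa4*, and 2466 bases part *Apoa1* from *Apoc3*, yet *Apoa4* rose while *Apoa1* did not pass the test in either comparison and *Apoa5*, 25173 bases beyond *Apoa4*, fell. The chromosome 7 cluster holds *Apoc1* (chr7:19689484-19692658) and *Apoe* (chr7:19696109-19699166), which lie 3450 bases apart and both fell. The other 4 genes lie outside both clusters: *Apoa2* at chr1:171225054-171226379, *Apob* at chr12:7977648-8016835, *Apoh* at chr11:108343354-108414396 and *Apom* at chr17:35128997-35132050. On the side of *Apoc1* lie *Apoc2*, whose product activates lipoprotein lipase, and *Apoc4*. *Apoc2* had 521, 506 and 509 CPM in baseline livers and 1195, 738 and 709 CPM in vehicle remnants, a log2 fold change of 0.78 (SE 0.22, adjusted p = 0.0219), so it rose where *Apoc1* and *Apoe* fell. In NSC remnants it had 766, 557 and 719 CPM, and the log2 fold change was 0.41 (SE 0.22, adjusted p = 0.161). *Apoc4* did not pass the test in either comparison (-0.12 and -0.26). The annotated span of *Apoc4* lies wholly within that of *Apoc2*, so how their reads were divided is uncertain.

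Around the chromosome 9 cluster, the antisense gene *Gm10680*, which overlaps *Apoa4*, had a mean of 0.011 CPM in baseline livers, 0.522 CPM in vehicle and 0.175 CPM in NSC remnants. It was called in vehicle remnants (adjusted p = 0.0087) and not in NSC remnants (adjusted p = 0.0523). Since the strand setting of the counting is not stated, reads of *Apoa4* and of *Gm10680* cannot be told apart. On the outer sides, *Sik3* fell by 0.68 and 1.10 and *Zpr1* by 0.66 and 0.93 on the log2 scale in vehicle and NSC remnants, and *Bud13* did not pass the test. Around the chromosome 7 cluster, of 9 neighbouring genes that are not among the 10, 2 rose and 0 fell in vehicle remnants, and 1 rose and 1 fell in NSC remnants. Over all tested genes, 12.7% rose and 11.0% fell in vehicle and 18.2% and 16.5% in NSC remnants, so these counts were near the background. *Tomm40*, the gene next to *Apoe* on its other side, was not called in either comparison (0.08 and -0.33).

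**Figure D4:**
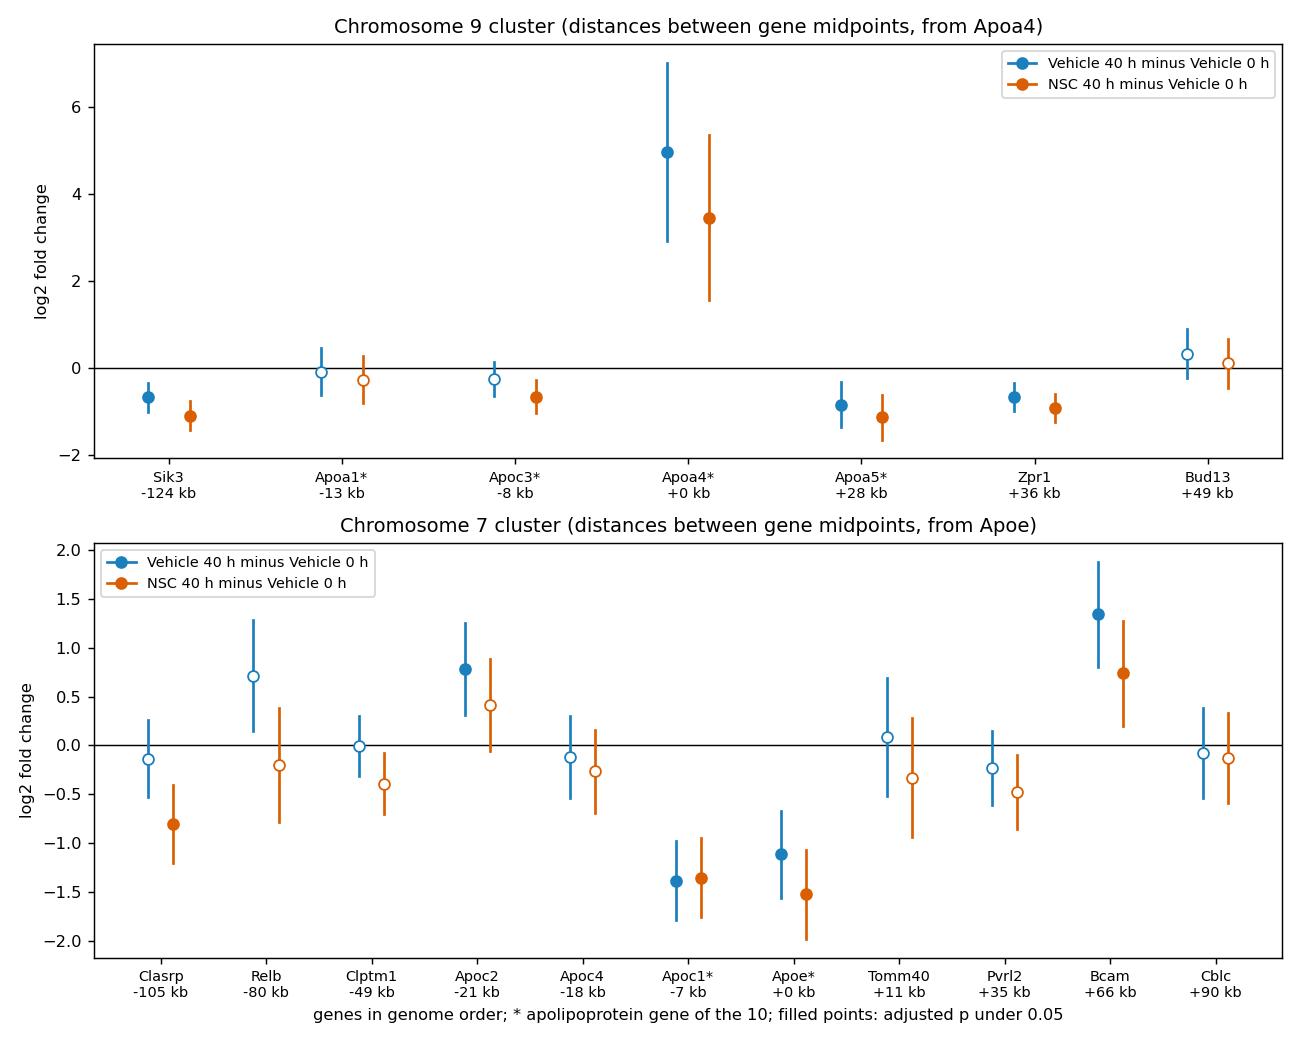
Genes of the chromosome 9 and chromosome 7 clusters stand in genome order on the horizontal axis, with the distance between gene midpoints in kb from Apoa4 or Apoe, and the vertical axis gives the log2 fold change with its 95% confidence interval in vehicle and NSC remnants against baseline. Apoa4 stands far above 0 (the antisense gene that overlaps it is left out for its low counts), while Apoc1 and Apoe lie below 0, and lower than each of their neighbours shown.

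The promoter sequences of 4 genes are shown because their changes contrast: *Apoa4*, which rose, its cluster neighbour *Apoa1*, which did not pass the test, and *Apoa2* and *Apoe*, which fell. The sequences are those of RefSeq on GRCm38.p6, read 5′ to 3′ on the strand of the gene and ending before the first base of both the RefSeq transcript and the deposited gene. Capitals mark exact matches to a nuclear receptor half-site (either AGGTCA or GGGTCA, and likewise either AGTTCA or GGTTCA, on either strand) or to a TATA box (TATAAA).
Apoa4 (chr9:46240594-46240695, + strand): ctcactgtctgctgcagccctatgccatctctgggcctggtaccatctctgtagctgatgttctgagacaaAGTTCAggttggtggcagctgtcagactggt
Apoa1 (chr9:46228380-46228579, + strand): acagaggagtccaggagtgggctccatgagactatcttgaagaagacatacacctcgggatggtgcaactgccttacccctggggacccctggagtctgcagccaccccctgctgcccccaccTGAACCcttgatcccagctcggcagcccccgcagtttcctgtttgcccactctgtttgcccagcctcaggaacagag
Apoa2 (chr1:171224804-171225053, + strand): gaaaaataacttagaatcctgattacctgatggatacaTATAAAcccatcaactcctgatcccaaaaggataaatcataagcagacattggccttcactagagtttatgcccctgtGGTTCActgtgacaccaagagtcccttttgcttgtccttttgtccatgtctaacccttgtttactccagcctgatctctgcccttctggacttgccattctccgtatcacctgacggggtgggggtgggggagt
Apoe (chr7:19699189-19699438, - strand): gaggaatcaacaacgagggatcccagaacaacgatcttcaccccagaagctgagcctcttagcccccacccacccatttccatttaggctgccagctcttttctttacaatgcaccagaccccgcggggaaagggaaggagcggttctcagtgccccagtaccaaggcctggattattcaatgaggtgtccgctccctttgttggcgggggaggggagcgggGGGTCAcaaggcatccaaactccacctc

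In the 250 bases before the RefSeq start, a half-site was found in 8 of the 8 genes with a sequence (all but *Apoc1* and *Apoc3*), and 38.6% of all 32851 promoter windows of that length held one. The window of *Apoh* belongs to a start far from that of the deposited gene. A TATA box was found in *Apoa2*, *Apoa5* and *Apob*, against 12.4% of all windows, and the E-box CACGTG in *Apoa5*, against 6.02%. In *Apoa2* the TATA box stands 212 bases before the start, in *Apoa5* 56 and in *Apob* 60. *Apoa5* held a pair of half-sites, at 129 and 115 bases before its start, on opposite strands. *Apoa1* also held a pair, at 127 and 42 bases, and so did *Apom*, at 156 and 32 bases, each pair on the same strand. The *Apoa1* site at 42 bases lies beyond the sequence shown, which ends 50 bases before the RefSeq start. That of *Apoa4* ends 148 bases before it. These matches describe letters only: genes that rose, that fell and that did not pass the test all held a half-site.

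Of 19 other apolipoproteins listed, 15 were tested. In vehicle remnants 2 rose (*Apoc2*, and *Clu*, which encodes clusterin, at 0.71) and 3 fell, and in NSC remnants 2 rose and 2 fell, with medians of 0.07 and 0.15. Over all tested genes, 12.7% rose and 11.0% fell in vehicle and 18.2% and 16.5% in NSC remnants, so these counts were near the background. Those that fell in vehicle remnants were members of the intracellular apolipoprotein L family. *Apol7a* fell by 1.58 and 1.28 on the log2 scale in vehicle and NSC remnants, and *Apol9b* by 1.62 and 1.54. *Apol9a* fell by 0.80 in vehicle remnants and was just outside the threshold in NSC remnants (-0.60, adjusted p = 0.0508). The acute phase apolipoprotein *Saa1* had 2765, 4712 and 6672 CPM in vehicle remnants and 6006, 9461 and 5179 CPM in NSC remnants, against the baseline values given above. Its log2 fold change was 1.37 (adjusted p = 0.149) and 1.92 (adjusted p = 0.0465). Without baseline replicate 2, the library with high *Saa1*, it was 2.45 (adjusted p = 0.002) and 2.99 (adjusted p = 0.00056), and without NSC replicate 1 it was 2.00 in NSC remnants (adjusted p = 0.0991). *Apol10b* was also called in NSC remnants (2.74, adjusted p = 0.03), at no more than 2.75 CPM in any library, and not without baseline replicate 2 (2.34, adjusted p = 0.0925). In vehicle remnants it was at 2.46 (adjusted p = 0.0608). The vehicle calls of *Apoc2* and *Clu* were lost without baseline replicate 2 as well (0.78 and 0.73, adjusted p = 0.0579 and 0.0736), where 3 acute phase genes, *Saa1*, *Saa2* and *Saa3*, were called instead; these are close copies of each other, so the split of reads among them is uncertain. The 2 rising genes became 0 in either comparison without baseline replicate 1 or 3, and 1 without vehicle replicate 1 or 2. In NSC remnants they also became 0 without NSC replicate 2 and 1 without NSC replicate 1 or 3, and the 2 falling genes became 4 without NSC replicate 3.

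Of 14 tested genes that load and secrete VLDL, 4 rose and 2 fell in vehicle remnants and 0 rose and 1 fell in NSC remnants, with medians of -0.17 and -0.11. The shares over all tested genes were 12.7% rising and 11.0% falling in vehicle and 18.2% and 16.5% in NSC remnants. The falling count in vehicle remnants was near that background, and both NSC counts were below it. *Mttp*, which encodes the lipid transfer protein that lipidates apolipoprotein B and was chosen after its values were seen, had log2 fold changes of -0.11 and -0.08. In vehicle remnants the subunit partner of that protein, *P4hb*, rose by 0.66, and *Pla2g12b*, needed for loading triglyceride onto VLDL, rose by 0.60. *A1cf*, a cofactor of *Apob* message editing, fell by 0.71, and *Sar1b*, a GTPase of transport vesicles, fell by 0.54 (-0.50, adjusted p = 0.087, without baseline replicate 2). In NSC remnants *Mia3*, a receptor for large secretory cargo, fell by 0.75. The 4 rising genes became 1 without baseline replicate 1 and 2 without baseline replicate 2 or 3 or vehicle replicate 1 or 2, the 2 falling genes became 0 or 1 when any 1 baseline or vehicle library was left out, and the falling gene in NSC remnants became 3 without NSC replicate 1 or 3.

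Among lipases and transporters that remodel particles, more genes fell than rose. Of 16 tested, 2 rose and 6 fell in vehicle remnants and 2 rose and 7 fell in NSC remnants, with medians of -0.51 and -0.64. The shares over all tested genes were 12.7% rising and 11.0% falling in vehicle and 18.2% and 16.5% in NSC remnants. *Pltp*, which encodes the phospholipid transfer protein of HDL, had 68.7, 173 and 131 CPM in baseline livers, 20.8, 19.4 and 10.4 CPM in vehicle remnants and 22.1, 12.6 and 12.4 CPM in NSC remnants. It fell by 2.88 (SE 0.42, adjusted p = 0.0019) and 2.98 (SE 0.42, adjusted p = 0.0011) on the log2 scale. *Lipc*, hepatic lipase, fell by 1.23 and 1.22. *Abcg1*, a cholesterol exporter to HDL, rose by 0.89 and 1.32, at no more than 6.57 CPM in any library. *Lpl*, lipoprotein lipase, rose by 1.87 in NSC remnants (adjusted p = 0.014). Its vehicle value of 1.44 was just outside the threshold (adjusted p = 0.0508). The 2 rising genes in vehicle remnants became 0 without baseline replicate 1 or 3 or vehicle replicate 2 and 1 without vehicle replicate 1.

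No lipoprotein receptor gene passed the direct test between NSC and vehicle remnants. Of 11 tested against baseline, 0 rose and 1 fell in vehicle remnants and 0 rose and 5 fell in NSC remnants, with medians of -0.31 and -0.49. The shares over all tested genes were 12.7% rising and 11.0% falling in vehicle and 18.2% and 16.5% in NSC remnants. The falling count in vehicle remnants was near that background. *Vldlr*, the receptor for VLDL, fell by 1.81 and 2.10 in vehicle and NSC remnants, and by 3.28 in NSC remnants without NSC replicate 1. Its level was low, at 2.72 to 4.90 CPM in baseline livers and 0.34 to 1.89 CPM in the remnants. The vehicle count went to 0 without baseline replicate 1 or 3 or vehicle replicate 1 or 3 and to 2 without NSC replicate 1, and the NSC count to 3 without baseline replicate 3 or NSC replicate 2. In the direct comparison 2 receptor genes fell without vehicle replicate 3 and 3 without NSC replicate 1.

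Of 27 transcription factors known to act on apolipoprotein genes, 1 rose and 9 fell in vehicle remnants and 1 rose and 11 fell in NSC remnants, with medians of -0.41 and -0.69. The shares over all tested genes were 12.7% rising and 11.0% falling in vehicle and 18.2% and 16.5% in NSC remnants. *Cebpa*, a factor of the mature hepatocyte, had 209, 221 and 233 CPM in baseline livers, 55.9, 76.0 and 94.9 CPM in vehicle remnants and 70.3, 79.5 and 116 CPM in NSC remnants. It fell by 1.55 (adjusted p = 0.00069) and 1.32 (adjusted p = 0.0011). The bile acid receptor gene *Nr1h4* fell by 1.06 in vehicle remnants and by 0.69 in NSC remnants. *Mlxipl*, the carbohydrate response factor, fell by 0.99 in vehicle remnants and by 1.64 in NSC remnants. *Foxa3* rose by 1.02 in vehicle and *Foxa1* by 1.04 in NSC remnants. *Foxa3* in NSC remnants was at 0.62 (adjusted p = 0.0912) and *Foxa1* in vehicle remnants at 0.46 (adjusted p = 0.186). *Hnf4a*, a factor of many apolipoprotein genes and also chosen after its values were seen, did not pass the test (0.06 and -0.21). The 9 falling genes in vehicle remnants became 5 without vehicle replicate 1 or 3, the rising gene there was lost without baseline replicate 3 or vehicle replicate 2 or 3, and 3 rose in NSC remnants without baseline replicate 2.

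Other plasma proteins of the hepatocyte gave only rising calls in vehicle remnants and calls in both directions in NSC remnants. None of these genes passed the direct test between NSC and vehicle remnants. Of 24 tested, 9 rose and 0 fell in vehicle remnants, and 6 rose and 4 fell in NSC remnants, with medians of 0.15 and 0.01. Over all tested genes, 12.7% rose and 11.0% fell in vehicle and 18.2% and 16.5% in NSC remnants. The falling count in NSC remnants was thus near the background. *Fga*, a fibrinogen chain, rose by 1.60 and 1.12 in vehicle and NSC remnants, and *Hpx*, hemopexin, by 1.73 and 1.68. *Ahsg*, fetuin-A, rose by 1.33 and 0.65. Its NSC call was lost without baseline replicate 2 (0.68, adjusted p = 0.0664) or NSC replicate 1 (0.53, adjusted p = 0.0742). In NSC remnants *F2*, prothrombin, fell by 0.90 and *Serpinc1*, antithrombin, by 0.71. Their vehicle values of -0.29 (adjusted p = 0.262) and -0.49 (adjusted p = 0.0637) were not called. When NSC replicate 1 was left out, 3 genes fell in vehicle remnants, against 2 when NSC replicate 3 and 1 when vehicle replicate 3 was, and in NSC remnants 2 fell without baseline replicate 3. The difference between this list and the apolipoprotein genes was not tested.

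**Figure D5:**
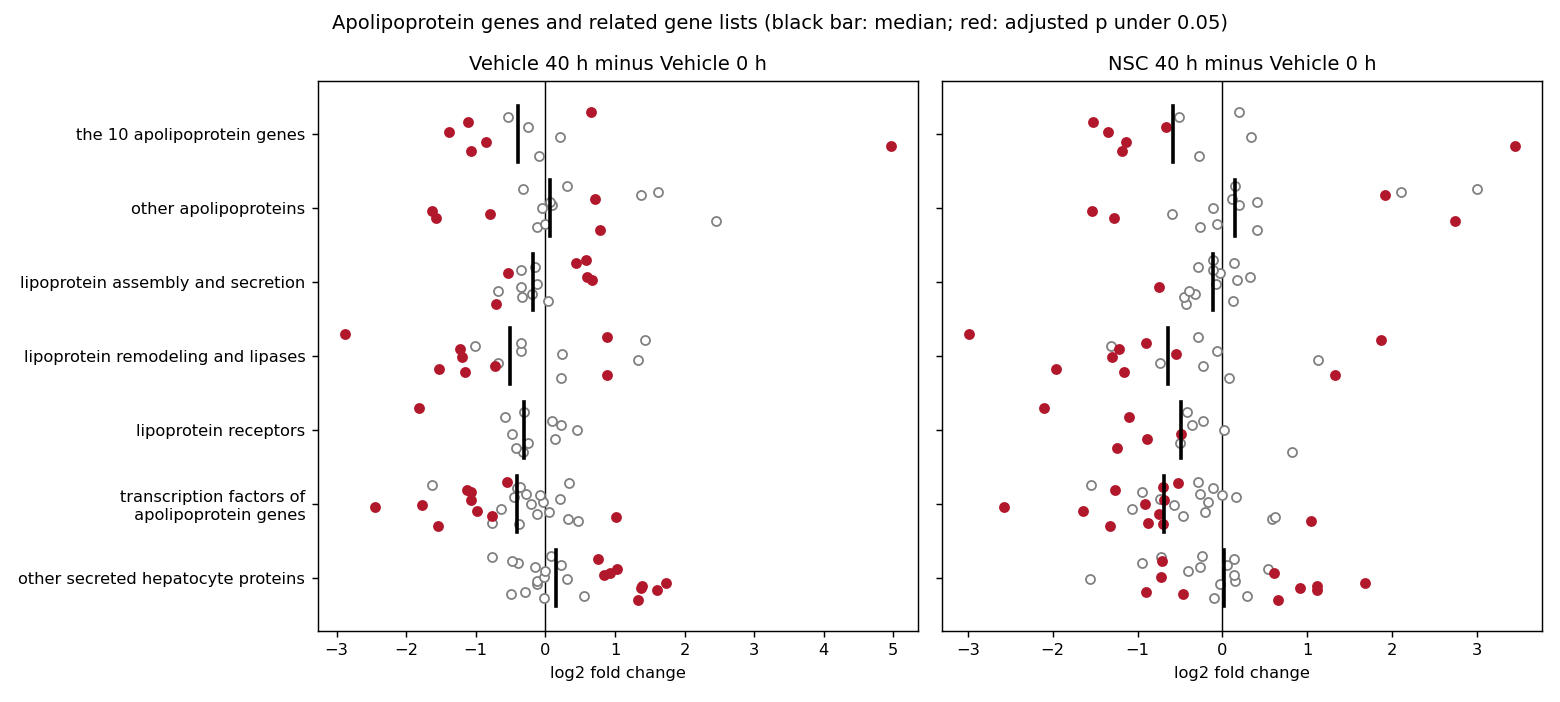
Each point is the log2 fold change of 1 tested gene against baseline, in vehicle remnants (left panel) and NSC remnants (right panel), by gene list on the vertical axis, with red points for an adjusted p under 0.05, open points for the rest and a black bar at the list median. The 10 apolipoprotein genes have medians of -0.40 and -0.59, and the other secreted hepatocyte proteins of 0.15 and 0.01.

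Markers of liver cell types were followed beside these genes, and their part in the results was not tested. Over all tested genes, 12.7% rose and 11.0% fell in vehicle and 18.2% and 16.5% in NSC remnants. Of 10 hepatocyte markers 4 fell in vehicle and 6 in NSC remnants and 0 rose. *Tdo2* fell by 1.68 and *Tat* by 1.25 in vehicle remnants. In NSC remnants *Tdo2* fell by 1.10, *Tat* by 1.93 and *Pck1* by 1.97. The summed level of the 10 markers was 118400 to 127500 CPM at baseline, 91240 to 126000 CPM in vehicle and 93540 to 109500 CPM in NSC remnants. Of 14 macrophage markers 3 rose in vehicle and 5 in NSC remnants and 0 fell. *Clec4f*, a Kupffer cell marker, had log2 fold changes of -0.54 (adjusted p = 0.0788) and 0.08 (adjusted p = 0.804). Their summed level was 251.7 to 351.4 CPM at baseline, 246.9 to 447.5 CPM in vehicle and 419.8 to 713.4 CPM in NSC remnants. *Marco* rose by 3.39 and 4.10, *Trem2* by 2.12 in vehicle and *Cd5l* by 1.39 in NSC remnants. *Trem2* in NSC remnants was at 1.46 (adjusted p = 0.0531) and *Cd5l* in vehicle remnants at 0.55 (adjusted p = 0.0887). Stellate cell markers, 7 of 10 of which rose in vehicle and 3 of 10 in NSC remnants, summed to 232.3 to 266.6 CPM at baseline, 457.6 to 620.8 CPM in vehicle and 288.1 to 542.1 CPM in NSC remnants. *Col1a2* rose by 2.52 and *Col3a1* by 2.96 in vehicle remnants, and *Rgs5* by 0.98 and *Dcn* by 0.59 in NSC remnants. Without NSC replicate 1 the last 2 values were 0.63 (adjusted p = 0.0107) and 0.35 (adjusted p = 0.115). *Rgs5* was also called in vehicle remnants (0.71, adjusted p = 0.0435), but not without baseline replicate 2 (0.59, adjusted p = 0.125). Some other calls within these counts were lost without baseline replicate 2. *Pck1* in vehicle remnants went from -0.84 (adjusted p = 0.0307) to -0.88 (adjusted p = 0.0542). *Col3a1* in NSC remnants went from 1.45 (adjusted p = 0.038) to 1.63 (adjusted p = 0.0681).

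The remaining cell type lists were smaller in level. Beside them, 12.7% of all tested genes rose and 11.0% fell in vehicle and 18.2% and 16.5% in NSC remnants. A count of 1 gene in these short lists was near that background. Of 6 tested cholangiocyte markers, 5 rose in vehicle and 3 in NSC remnants. *Krt7* was up by 2.77 and 1.75, *Spp1* by 1.14 and 1.35, and *Krt19* by 2.07 in vehicle remnants. The sum of the listed markers went from 38.4 to 41.6 CPM at baseline to between 77.7 and 123.1 CPM in the remnants. Of 6 tested neutrophil markers 1 rose in vehicle and 3 in NSC remnants, led by *Retnlg* at 2.74 and 3.08 and with *S100a8* at 2.35 in NSC remnants, and their sum was at most 11.63 CPM at baseline and 21.99 CPM in the remnants. Of 9 sinusoidal endothelial markers 3 fell in vehicle and 1 in NSC remnants, with *Oit3* down in both (-0.97 and -0.75) and *Dnase1l3* in vehicle (-0.86). The NSC calls of *Krt7* and *Oit3* were lost without baseline replicate 2 (1.58 and -0.64, adjusted p = 0.0581 and 0.076), and that of *Krt7* also without NSC replicate 1 (1.12, adjusted p = 0.0608). *Krt19* was called in NSC remnants as well (0.99, adjusted p = 0.035). That call was lost without baseline replicate 2 (0.82, adjusted p = 0.113) or NSC replicate 1 (0.71, adjusted p = 0.116). Of 5 tested erythroid markers 1 fell in each comparison, *Alas2* (-1.83 and -1.60), and 1 listed marker was at 0 in all baseline livers. Of 15 clock genes 5 fell in each comparison, among them *Cry2* (-1.62 and -1.76), *Hlf* (-0.95 and -0.58) and *Per1* in NSC remnants (-2.24). The NSC call of *Hlf* was lost without baseline replicate 2 (-0.32, adjusted p = 0.164). *Per1* in vehicle remnants was at -1.01 (adjusted p = 0.0686). The medians of the clock genes, -1.20 and -1.47, became -0.69 and -0.57 without baseline replicate 2. The 5 falling clock genes became 2 or 3 in vehicle remnants without baseline replicate 1, vehicle replicate 1 or 3 or NSC replicate 1, and 3 in NSC remnants without any 1 of the NSC libraries.

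The genes whose profile over the 9 libraries was most like that of the apolipoprotein genes were sought among 7877 tested genes of at least 10 CPM, as the root mean square difference of log2 CPM after centring each gene on its own mean. Nearest to the mean profile of the 10 genes were *Atp6v0d1* (0.068), *Npc2* (0.082), *Fbxo18* (0.090), *Nub1* (0.090) and *Inppl1* (0.090), genes that varied little, as the rise of *Apoa4* and the falls of other members cancelled in that mean. Nearest to *Apoa4* were the cyclin D1 gene *Ccnd1* (0.88), *Col5a2* (0.90), *Col3a1* (0.96), *Slpi* (0.97) and *Col1a1* (0.98). *Ccnd1* had 7.74, 15.3 and 9.11 CPM in baseline livers, 175, 72.1 and 67.4 CPM in vehicle remnants and 109, 75.2 and 57.0 CPM in NSC remnants. As with *Apoa4*, replicate 1 was the highest library of each 40 h group.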

How the data were processed

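RNA-Seq libraries of whole liver were made with a stranded polyadenylated RNA kit. Paired-end reads were aligned by the authors (STAR 2.6.1, MAP-RSeq), who counted them per gene with featureCounts of Subread 1.5.1 and deposited raw counts and FPKM per library, unpooled. The methods name a human reference, but the deposited identifiers and coordinates are those of mouse GRCm38. FPKM, normalized by the authors to gene length and library total, were used to compare levels between genes and their sums, shares and ratios between groups, with no test.

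Counts were fitted in R 4.3.3 with edgeR 4.0.16 (TMM factors, filterByExpr, robust quasi-likelihood test, all 9 libraries in 1 fit with group as the only term), two-sided, with Benjamini-Hochberg adjustment over 15024 genes and a call at adjusted p under 0.05. Standard errors were taken from the F statistic of each contrast (absolute log2 fold change over the root of F). DESeq2 1.42.0 was an alternative. Tables used Python 3.11.15 (pandas 2.3.3) and figures matplotlib 3.10.9.

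The 10 genes, the lists and the tests were chosen with earlier results of these data known. Named were all 10 genes and, for every other list and each 40 h group, the 2 called genes of smallest adjusted p in each direction against baseline, every list gene called between NSC and vehicle (there was none), and the 5 genes nearest in profile to the mean of the 10 and to the most variable of them. Of the genes this rule names, 2 are not reported here. Genes adjoining the 2 clusters were added after their values were seen. List genes were matched by symbol or, for 3 genes, by Ensembl identifier, and 1 endothelial marker was not matched. Depth was 23997363 to 42887589 counts per library. The labels number the replicates and say nothing more of them, and the study's figure legends call them biological replicates, 3 per group. The p-values therefore measure only the spread between these samples. Replicates of a group differed by a chi-square per gene of 25.1 to 152, far above sampling noise, and none was a repeated deposit. Alternatives were other scalings, filters, thresholds and samples in the fit, a replicate term, a loess correction (span 0.5) for GC content, known for 99.2% of tested genes, and each library left out in turn. Leaving out baseline replicate 2 and NSC replicate 1 together was chosen after seeing the data.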

Additional observations from a re-analysis of the deposited data

How the results depend on the processing

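The falls of *Apoa2*, *Apoc1* and *Apoe* in both comparisons with baseline, the fall of *Apoa5* in NSC remnants and the rise of *Apoa4* in vehicle remnants kept their direction and their call in all 19 alternative fits.

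With 1 library left out at a time, the genes called of the 10 ranged from 4 to 7 in vehicle remnants (rising 1 to 2, falling 3 to 5), from 5 to 7 in NSC remnants (rising 0 to 1, falling 5 to 6) and from 0 to 1 between NSC and vehicle (falling 0 to 1), and the calls over all genes from 2285 to 4538, from 3604 to 5234 and from 0 to 994. In the direct comparison over all genes, where 6 were called, DESeq2 called 667, library size scaling 1, all genes with at least 1 count 221, GC content correction 0, and leaving out baseline replicate 2 and NSC replicate 1 together 1419, and that last fit called 1 of the 10 genes, which fell (*Apoa4*, -2.76, adjusted p = 0.0297). An adjusted p under 0.01 gave 1726, 2975 and 0 calls over all genes, with 1 rising gene of the 10 in vehicle and 0 in NSC remnants. Requiring an absolute log2 fold change over 1.5 as well gave 1085, 1222 and 3 calls over all genes, with 1 of the 10 (1 rising, 0 falling) in vehicle and 2 (1 falling) in NSC remnants.

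Directions turned only for values that were not called. Leaving out 1 library gave *Apoa1* -0.33 to 0.086 in vehicle remnants (above 0 without baseline replicate 2, and 0.051 without vehicle replicate 1) and, in the direct comparison, *Apoa1* -0.34 to 0.058, *Apoa2* -0.28 to 0.035, *Apob* -0.14 to 0.35, *Apoc1* -0.077 to 0.13 and *Apoh* -0.11 to 0.11. Without both libraries *Apoa1* was 0.085 in vehicle and 0.0079 in NSC remnants. GC content correction gave *Apoa1* 0.035 in NSC remnants and 0.13 in the direct comparison. *Apob* in NSC remnants was -0.090 with GC content correction and -0.024 without both libraries, and in the direct comparison -0.097 and -0.14. *Apoa2* in the direct comparison was 0.033 with library size and 0.016 with GC content correction. There *Apoc1* was -0.045 and *Apoh* -0.10 without NSC replicate 3. The cause was not tested.

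Whether equal replicate numbers mark paired libraries is not known. The deviations of same-numbered libraries from their group means correlated at -0.048 to 0.13 over 9 pairs, above 0 in 8 and over 0.1 in 1, and in 13 of 18 cases a library correlated best with its own number in another group. Only pairs of baseline and vehicle remnant could be of the same mouse, and these correlated at 0.081, 0.070 and -0.048. The remaining pairs join a vehicle and an NSC mouse. How often such counts arise without pairing was not tested. A replicate block gave 6, 7 and 0 calls of the 10 genes in the 3 comparisons, and 11 calls over all genes in the direct comparison. Each of the 10 genes had at least 2624 counts in every library, and with 3 livers per group the 95% confidence intervals of the direct comparison were at least 0.76 wide on the log2 scale. How far depth set that width was not tested.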
